A study of Arabidopsis thaliana with 10 samples.

Results

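HY5, its paralogue HYH and 8 B-box (BBX) genes were followed across 5 genotypes of Arabidopsis thaliana grown in weak blue light. The 10 genes were taken by locus number from the 33557 genes listed for each library. All 10 were listed as measured in all 10 libraries and passed the filter of 1 FPKM in 2 libraries or more. FPKM, the deposited unit, is the number of fragments corrected for transcript length and for library depth. Messenger RNA was sequenced from whole seedlings of the Columbia ecotype after 4 days of constant blue light at an intensity of 1 µmol m-2 s-1, with 2 biological replicates of each genotype. WT had no mutation or transgene. The cry2-1 line carries a mutation of the blue-light receptor gene CRY2, and CRY2oe overexpresses CRY2. UBP13oe overexpresses UBP13, a ubiquitin-specific protease that removes ubiquitin from proteins. The line labelled ubp12ubp13 is a double mutant of UBP13 and its paralogue UBP12. The promoters of the transgenes and the number of lines behind each genotype were not given in the sources used here.

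Plants deprived of light hold back photomorphogenesis, because the COP1/SPA ubiquitin ligase marks proteins that promote it for degradation. Light-activated cryptochromes bind COP1/SPA and inhibit it, which lets HY5, HYH and several BBX proteins accumulate. HY5 and HYH are bZIP transcription factors that bind DNA elements with an ACGT core in genes of pigment synthesis, photosynthesis and growth. BBX proteins have zinc-binding B-box domains and act largely through HY5. BBX20, BBX21 and BBX22 assist it, whereas BBX24, BBX25, BBX28 and BBX32 counteract photomorphogenesis. Transcript levels, as measured here, say nothing of protein levels.

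Promoter sequences are shown for the 2 bZIP genes, which fell together in cry2-1, and for BBX20, which had the largest fall of the 10 genes in the libraries labelled ubp12ubp13, and BBX25, whose mean there was 2.18 times that of WT. Each is the 250 bases before the gene start in RefSeq's annotation of the TAIR10.1 assembly, 5′ to 3′ on the gene's strand, with ACGT in capitals. They lie at chr5:3595074-3595323 (minus strand), chr3:6023594-6023843 (plus), chr4:18206685-18206934 (minus) and chr2:13381517-13381766 (plus).
HY5: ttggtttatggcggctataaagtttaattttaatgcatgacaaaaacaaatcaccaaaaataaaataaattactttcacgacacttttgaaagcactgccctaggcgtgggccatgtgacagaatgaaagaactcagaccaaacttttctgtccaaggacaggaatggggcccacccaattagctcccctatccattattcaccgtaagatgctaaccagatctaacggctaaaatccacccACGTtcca
HYH: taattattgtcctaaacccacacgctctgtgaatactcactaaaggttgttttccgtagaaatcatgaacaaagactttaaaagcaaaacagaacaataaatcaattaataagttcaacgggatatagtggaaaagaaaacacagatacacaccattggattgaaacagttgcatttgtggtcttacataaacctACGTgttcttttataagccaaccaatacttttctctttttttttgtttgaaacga
BBX20: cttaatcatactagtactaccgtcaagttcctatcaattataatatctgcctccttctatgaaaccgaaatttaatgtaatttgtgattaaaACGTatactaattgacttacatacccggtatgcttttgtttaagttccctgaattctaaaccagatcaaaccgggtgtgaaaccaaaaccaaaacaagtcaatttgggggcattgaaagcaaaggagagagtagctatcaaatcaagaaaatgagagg
BBX25: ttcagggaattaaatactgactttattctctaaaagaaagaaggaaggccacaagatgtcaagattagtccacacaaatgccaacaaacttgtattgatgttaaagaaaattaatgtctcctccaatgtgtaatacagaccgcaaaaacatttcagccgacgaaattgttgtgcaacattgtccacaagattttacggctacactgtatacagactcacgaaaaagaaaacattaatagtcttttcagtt
ACGT, which reads the same on both strands, was in 5 of the 9 promoters searched and in 44.1% of the 27443 promoters of protein-coding genes. It began 8 bases before the start in HY5, 55 in HYH, 158 in BBX20, 100 in BBX24 and 5 in BBX28. The longer element AACGTG, searched on both strands and overlapping the core, was in the HY5 promoter alone among the 9, against 7.54% of all promoters. Neither CACGTG (6.49% of all promoters) nor GACGTG (5.89%), searched in the same way, was in any of the 9. A match is a description of these letters only.

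The estimated depth was 15.4 to 30.7 M fragments per library, and 18557 to 19206 genes per library had 1 FPKM or more. CRY2 was at 110 and 120 FPKM in WT, at 0 and 0.0187 in cry2-1, and at 3923 and 3808 in CRY2oe. UBP13 was at 27.1 and 28.3 in WT and at 69 and 66.1 in UBP13oe. In the libraries labelled ubp12ubp13 UBP13 was still at 24.2 and 23.6, and UBP12 was at 397 in replicate 1 against 35.0 and 34.8 in WT, with a failed estimate in replicate 2, so a loss of these transcripts was not seen, and ubp12ubp13 below stands for the libraries so labelled. AT1G04410, a gene beside CRY2 with 435 and 443 FPKM in WT, was at 0.114 or less in both cry2-1 and both CRY2oe libraries, a loss that those lines share. AT1G04420 was at 32 and 30.3 in WT and at 0 in the same cry2-1 and CRY2oe libraries. CRY2oe against WT thus holds both excess CRY2 and these losses, whose parts cannot be told apart. Summed FPKM of 11 root markers was 1705 to 1855 in WT, 2361 to 2547 in cry2-1, 1561 to 1628 in CRY2oe, 2954 to 3123 in UBP13oe and 1948 to 1963 in ubp12ubp13. For 5 green tissue markers the sums were 21827 to 23444 in WT, 19743 to 20960 in cry2-1, 30121 to 30969 in CRY2oe, 24156 to 24619 in UBP13oe and 36097 to 38405 in ubp12ubp13. For 7 seed markers they were 17.0 to 31.7, 9.02 to 9.10, 5.02 to 7.81, 2.80 to 3.94 and 17.5 to 29.5 in the same order. None of these markers was at 0 in every library, and their part in the results below was not tested. In whole seedlings, fewer cells of a type and less RNA per cell cannot be told apart.

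All 10 genes differed among the 5 genotypes by limma's moderated F test (adjusted p from 3.17e-06 for BBX25 to 0.000854 for BBX24), as did 77.6% of all genes tested. BBX24 and BBX21 were the most abundant, with means over the 10 libraries of 154 and 122 FPKM, and BBX32 was the least at 2.19 FPKM. The ratio of the highest to the lowest genotype mean was 12 for BBX32, 3.37 for BBX20 and 1.34 for BBX24, and between 1.85 and 2.39 for the other 7 genes. Where the genotype means of a gene are put in order, neighbours were compared by their own contrast. In those that involve no WT library and are counted nowhere else, 6 of the genes were higher and 3 lower in UBP13oe than in cry2-1 (29.0% of all genes called, 17.2% higher and 11.8% lower), and 5 and 2 in ubp12ubp13 against cry2-1 (57.0%, 24.6% and 32.4%). Against CRY2oe, 3 and 3 were called in UBP13oe (35.4%, 25.4% and 9.93%) and 6 and 3 in ubp12ubp13 (50.0%, 26.4% and 23.5%).

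**Figure D1:**
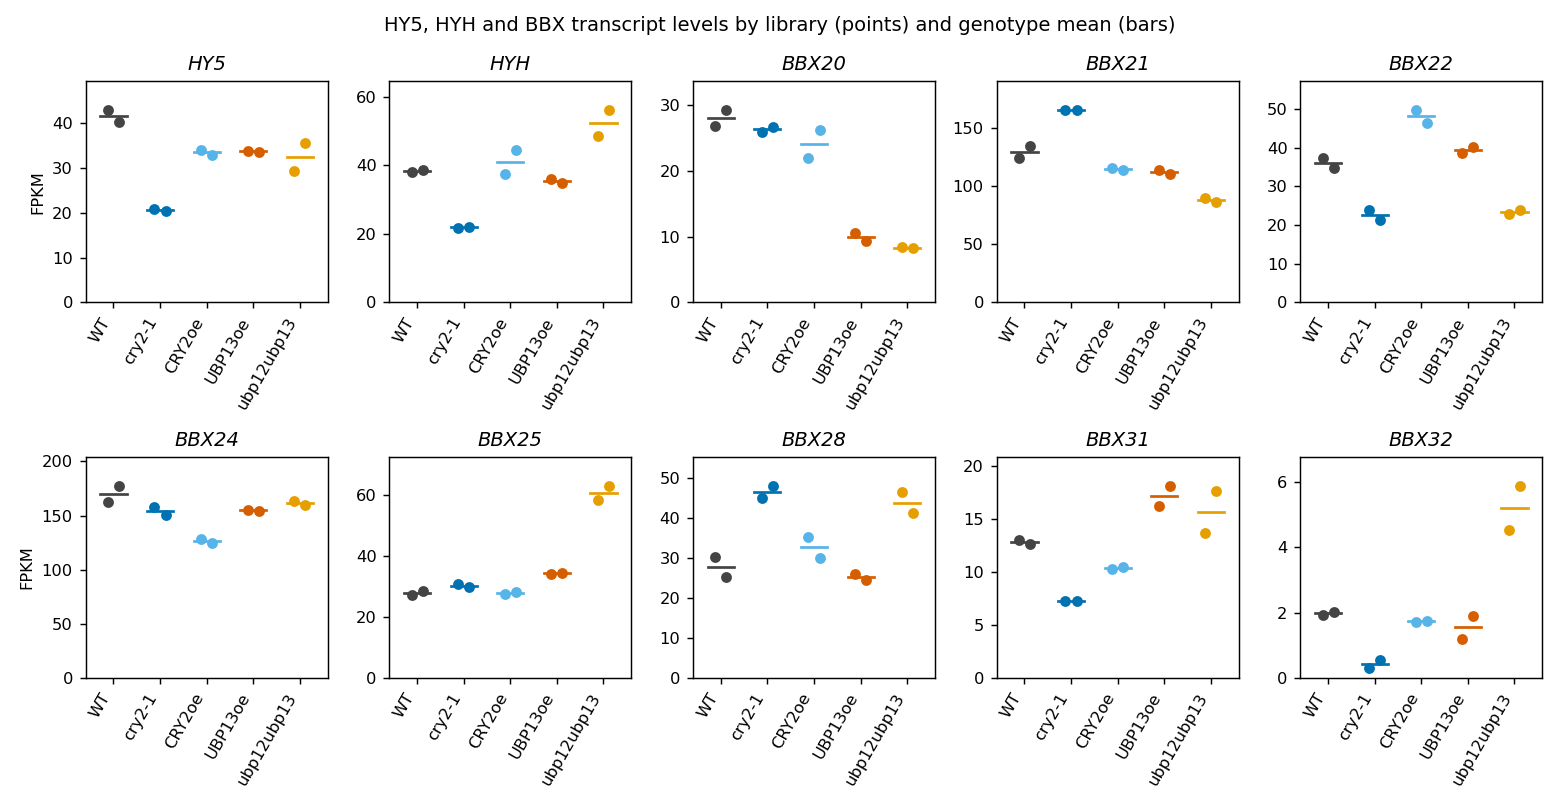
FPKM (vertical axes, from 0) of each of the 10 genes in the 2 libraries (points) of each genotype, with the genotype mean (bars). HY5 and HYH are lowest in cry2-1, BBX20 is near 10 FPKM or below it in UBP13oe and ubp12ubp13, and BBX25 is highest in ubp12ubp13.

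HY5 (AT5G11260, chr5:3593380-3594992, TAIR10 as are all gene positions here) was lowered by a factor of about 2 in cry2-1 and more weakly in each of the other lines. Its replicates were at 42.8 and 40.3 FPKM in WT and 20.9 and 20.3 in cry2-1. CRY2oe gave 34.0 and 32.9, UBP13oe 33.7 and 33.6, and ubp12ubp13 29.3 and 35.4. Both WT libraries were above all 8 others, and both cry2-1 libraries were below all others. The log2 change against WT was -0.98 ± 0.08 (SE; n = 2 per genotype, as throughout) in cry2-1, with a limma adjusted p of 6.84e-05. In ubp12ubp13 it was -0.36 ± 0.08 (limma adjusted p = 0.00528), and -0.23 without ubp12ubp13 replicate 1, which still passed. In CRY2oe it was -0.30 ± 0.08 (limma adjusted p = 0.0262) and in UBP13oe -0.30 ± 0.08 (limma adjusted p = 0.0177). The CRY2oe and UBP13oe calls rested on single libraries: the CRY2oe call was lost without WT replicate 1 (adjusted p = 0.106) or CRY2oe replicate 1 (0.0809) or 2 (0.123), and the UBP13oe call without WT replicate 1 (0.0815) or UBP13oe replicate 1 (0.066) or 2 (0.076). HY5 thus lay below WT in cry2-1 and, by a smaller margin, in CRY2oe, lines that also share the loss of AT1G04410 and AT1G04420. CRY2oe was nonetheless above cry2-1, by 0.67 ± 0.08 on the log2 scale (limma adjusted p = 0.000362). In the order of the means, cry2-1 was lowest at 20.6 ± 0.384 FPKM (SD) and WT was highest at 41.6 ± 1.83. Between them were ubp12ubp13, CRY2oe and UBP13oe at 32.3, 33.4 and 33.6, whose neighbours did not differ past the threshold.

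HYH (AT3G17609, chr3:6023866-6024698), the paralogue that shares part of HY5's function, was also lowest in cry2-1, but it was highest in ubp12ubp13, where HY5 was below WT. Its levels were 38.2 and 38.7 FPKM in WT and 21.7 and 22.1 in cry2-1. CRY2oe gave 37.6 and 44.6, UBP13oe 36.2 and 35.0, and ubp12ubp13 48.7 and 56.2. The cry2-1 libraries were below all others and the ubp12ubp13 libraries above all others, while CRY2oe overlapped WT. Against WT, HYH fell by 0.78 ± 0.09 on the log2 scale in cry2-1 (limma adjusted p = 0.000281) and rose by 0.44 ± 0.09 in ubp12ubp13 (limma adjusted p = 0.00305). Its changes of 0.09 ± 0.09 in CRY2oe and -0.11 ± 0.09 in UBP13oe did not pass (limma adjusted p = 0.48 and 0.337). After rescaling of the libraries by the median of ratios the UBP13oe value was -0.27 and passed (adjusted p = 0.0385). The step from CRY2oe up to ubp12ubp13 passed at a limma adjusted p of 0.0111, but not without CRY2oe replicate 1 (0.0711) or ubp12ubp13 replicate 2 (0.0719).

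The ratio of HY5 to HYH within a library does not depend on how the library is scaled. This ratio and those below were chosen after the values were seen, and 2 libraries against 2 cannot reach an exact permutation p below 0.333, so they are descriptions. HY5 to HYH was 1.12 and 1.04 in WT and 0.961 and 0.919 in cry2-1. CRY2oe gave 0.904 and 0.737, UBP13oe 0.932 and 0.960, and ubp12ubp13 0.601 and 0.629. HY5 exceeded HYH in the WT libraries alone, and the balance was shifted farthest towards HYH in ubp12ubp13.

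**Figure D2:**
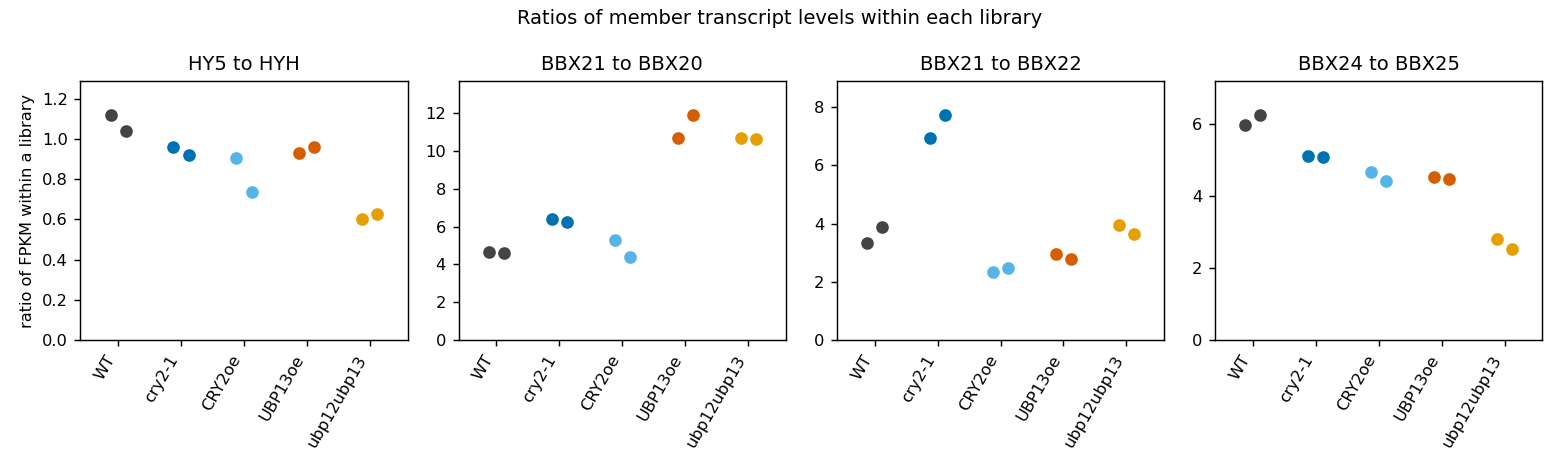
Ratio of FPKM (vertical axes, from 0) between pairs of the genes within each library (points), by genotype. HY5 to HYH is lowest in ubp12ubp13, BBX21 to BBX20 is above 10 in UBP13oe and ubp12ubp13, BBX21 to BBX22 is highest in cry2-1, and BBX24 to BBX25 is lowest in ubp12ubp13.

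BBX20 (AT4G39070, chr4:18204855-18206509), a cofactor of HY5 in gene activation, fell in both lines with altered UBP genes and did not change detectably with CRY2. It was at 26.8 and 29.2 FPKM in WT and 25.9 and 26.6 in cry2-1. CRY2oe gave 21.9 and 26.1, UBP13oe 10.6 and 9.34, and ubp12ubp13 8.41 and 8.21. The libraries of the UBP13 overexpressor and of the line labelled as the double mutant did not overlap those of the other 3 genotypes. The log2 change against WT was -1.40 ± 0.09 in UBP13oe (limma adjusted p = 5.42e-05) and -1.64 ± 0.09 in ubp12ubp13 (limma adjusted p = 3.05e-06). UBP13oe and ubp12ubp13 did not differ from each other past the threshold (-0.23 ± 0.09, limma adjusted p = 0.0568), although they did without UBP13oe replicate 2 (0.047), without either CRY2oe replicate (0.0312 and 0.0315) and with a pseudocount of 0.1 (0.0496). In cry2-1 and CRY2oe the changes were -0.09 ± 0.09 and -0.22 ± 0.09 (limma adjusted p = 0.456 and 0.111). The shared WT libraries enter both comparisons, and both lines were also below cry2-1, by -1.32 and -1.55 on the log2 scale (limma adjusted p = 2.83e-05 and 2.69e-06).

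BBX21 (AT1G75540, named STH2 in the files, chr1:28366027-28367652), an activator of photomorphogenesis that binds the HY5 promoter, was the only one of BBX20, BBX21 and BBX22 to rise in cry2-1. Its values were 124 and 135 FPKM in WT and 166 and 166 in cry2-1. CRY2oe gave 116 and 114, UBP13oe 114 and 111, and ubp12ubp13 90.0 and 86.7. The cry2-1 libraries stood above all others and the ubp12ubp13 libraries below all others. The rise in cry2-1 was 0.35 ± 0.05 on the log2 scale (limma adjusted p = 0.000687) and the fall in ubp12ubp13 -0.55 ± 0.05 (limma adjusted p = 3.21e-05). The change was -0.20 ± 0.05 in UBP13oe (limma adjusted p = 0.00951), lost without UBP13oe replicate 2 (0.0607). In CRY2oe it was -0.17 ± 0.05 (limma adjusted p = 0.033), and that call was lost without any 1 of WT replicate 2 (0.132), the CRY2oe replicates (0.104 and 0.144), the cry2-1 replicates (0.0539 and 0.054) or the UBP13oe replicates (0.0501 and 0.0502). BBX21 fell in the order cry2-1, WT, CRY2oe and UBP13oe, which did not differ, and ubp12ubp13. The ratio of BBX21 to BBX20 was 4.64 and 4.62 in WT and 10.6 to 11.9 in the UBP13oe and ubp12ubp13 libraries.

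BBX22 (AT1G78600, LZF1 in the files, chr1:29567106-29568859), also called LIGHT-REGULATED ZINC FINGER 1 and known as a direct HY5 target, was the one gene of the 10 that fell in cry2-1 and rose in CRY2oe. It was at 37.3 and 34.8 FPKM in WT and 23.8 and 21.4 in cry2-1. CRY2oe gave 49.8 and 46.5, UBP13oe 38.5 and 40.1, and ubp12ubp13 22.8 and 23.8. No library of cry2-1 or ubp12ubp13 overlapped WT, and both CRY2oe libraries were above all others. Against WT the log2 change was -0.65 ± 0.07 in cry2-1 (limma adjusted p = 0.000179), 0.41 ± 0.07 in CRY2oe (limma adjusted p = 0.0042) and -0.61 ± 0.07 in ubp12ubp13 (limma adjusted p = 0.000106). The cry2-1 and ubp12ubp13 levels, 22.6 ± 1.71 and 23.3 ± 0.709 FPKM (SD), did not differ past the threshold (limma adjusted p = 0.616). In UBP13oe the value was 0.12 ± 0.07 (limma adjusted p = 0.16), and it was -0.04 after the median-of-ratios rescaling. The BBX22 mean in CRY2oe was 2.13 times that in cry2-1, a difference of 1.06 ± 0.07 on the log2 scale (limma adjusted p = 1.32e-05). UBP13oe was below CRY2oe (-0.28 ± 0.07, limma adjusted p = 0.0109), a call lost without CRY2oe replicate 1 (0.0759) or UBP13oe replicate 1 (0.0654). The ratio of BBX21 to BBX22 was 3.34 and 3.88 in WT, 6.95 and 7.73 in cry2-1, and 2.33 and 2.46 in CRY2oe.

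BBX24 (AT1G06040, STO in the files, chr1:1828413-1829890), a COP1-binding repressor of photomorphogenesis, varied least. It was at 162 and 178 FPKM in WT and 158 and 151 in cry2-1. CRY2oe gave 129 and 125, UBP13oe 155 and 154, and ubp12ubp13 164 and 160. The CRY2oe libraries lay below the other 8, and WT overlapped ubp12ubp13. BBX24 fell by 0.42 ± 0.05 on the log2 scale in CRY2oe (limma adjusted p = 0.00148). The values of -0.14 in cry2-1, -0.13 in UBP13oe and -0.07 in ubp12ubp13 did not pass (limma adjusted p = 0.0534, 0.0603 and 0.271). All 3 passed after the median-of-ratios rescaling, at -0.29, -0.30 and -0.16 (adjusted p = 0.0023, 0.00239 and 0.0206), and the cry2-1 and UBP13oe values also did without WT replicate 1 (0.0148 and 0.0168).

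BBX25 (AT2G31380, STH in the files, chr2:13381910-13383470), the close homologue of BBX24, rose more than 2-fold in ubp12ubp13, where its mean was 2.18 times that of WT. Its levels were 27.2 and 28.4 FPKM in WT and 30.8 and 29.7 in cry2-1. CRY2oe gave 27.6 and 28.3, UBP13oe 34.2 and 34.5, and ubp12ubp13 58.3 and 63.1. Both ubp12ubp13 libraries were far above all others, the UBP13oe libraries came next, and CRY2oe overlapped WT. The log2 change against WT was 1.10 ± 0.05 in ubp12ubp13 (limma adjusted p = 1.36e-06) and 0.29 ± 0.05 in UBP13oe (limma adjusted p = 0.00241). The UBP13oe change was 0.13 after the median-of-ratios rescaling and no longer passed (adjusted p = 0.0577). In cry2-1 and CRY2oe the values were 0.12 and 0.01 (limma adjusted p = 0.0951 and 0.934), and both were below 0 after that rescaling, at -0.03 and -0.06. With nuclear genes scaled to a common sum, the cry2-1 value was instead 0.15 and passed (limma adjusted p = 0.0285). BBX25 overlaps AT2G31390 on the opposite strand by 48 bases at its 3′ end (chr2:13383423-13386209), and whether strand was used in counting was not given in the sources used here. That gene was itself 0.61 ± 0.06 higher in ubp12ubp13 (limma adjusted p = 4.44e-05), at 71.0 and 78.8 FPKM against 49.9 and 47.6 in WT, so the BBX25 level may hold some of its fragments. BBX24 to BBX25 was 5.96 and 6.25 in WT and 2.81 and 2.54 in ubp12ubp13, the lowest ratios of the 10 libraries. The summed green tissue markers were also highest in ubp12ubp13, and their part in the BBX25 and HYH values was not tested.

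BBX28 (AT4G27310, chr4:13675638-13676910), a single B-box protein that keeps HY5 from binding DNA, was higher in cry2-1 and ubp12ubp13. It was at 30.3 and 25.2 FPKM in WT and 45.1 and 48.0 in cry2-1. CRY2oe gave 35.3 and 29.9, UBP13oe 26.0 and 24.4, and ubp12ubp13 46.4 and 41.3. The cry2-1 and ubp12ubp13 libraries were above all 6 others, among which WT overlapped both overexpressors. The rises were 0.73 ± 0.11 on the log2 scale in cry2-1 (limma adjusted p = 0.00102) and 0.64 ± 0.11 in ubp12ubp13 (limma adjusted p = 0.00112). In CRY2oe and UBP13oe the values were 0.23 and -0.13 (limma adjusted p = 0.153 and 0.352). CRY2oe was below cry2-1 by -0.50 ± 0.11 (limma adjusted p = 0.00671), and UBP13oe was below ubp12ubp13, a difference of 0.77 ± 0.11 (limma adjusted p = 0.000474). The step from CRY2oe up to ubp12ubp13 (limma adjusted p = 0.0118) was lost without CRY2oe replicate 2 (0.0804) or ubp12ubp13 replicate 1 (0.0727). HY5 thus fell in cry2-1 while BBX28, which counters HY5, rose there.

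BBX31 (AT3G21890, chr3:7709113-7709733) encodes a microprotein, little more than a B-box domain, from a single exon. It was at 13.0 and 12.6 FPKM in WT and 7.24 and 7.33 in cry2-1. CRY2oe gave 10.3 and 10.5, UBP13oe 16.2 and 18.2, and ubp12ubp13 13.7 and 17.7. The cry2-1 libraries were lowest, CRY2oe came between them and WT, and the UBP13oe and ubp12ubp13 libraries were above WT and overlapped each other. BBX31 fell by 0.74 ± 0.11 on the log2 scale in cry2-1 (limma adjusted p = 0.00094). The rise of 0.39 ± 0.11 in UBP13oe (limma adjusted p = 0.0178) was lost without WT replicate 2 (0.0701) or UBP13oe replicate 2 (0.11) and after the median-of-ratios rescaling (0.24, adjusted p = 0.104). In CRY2oe the value was -0.28 ± 0.11 (limma adjusted p = 0.0882), and it passed without either ubp12ubp13 replicate (0.022 and 0.0224) and after that rescaling (0.0386). In ubp12ubp13 it was 0.26 ± 0.11 (limma adjusted p = 0.0636), and it was 0.44 and passed without ubp12ubp13 replicate 1 (0.00378), but 0.09 with no call without replicate 2. CRY2oe was above cry2-1 by 0.46 ± 0.11 (limma adjusted p = 0.00985), a call lost without cry2-1 replicate 1 (0.0514) or CRY2oe replicate 2 (0.0526).

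BBX32 (AT3G21150, chr3:7412636-7413539), another single-exon gene, whose protein binds BBX21 and dampens the light response, was the scarcest and had the widest relative range. It was at 1.94 and 2.03 FPKM in WT and 0.319 and 0.551 in cry2-1. CRY2oe gave 1.73 and 1.76, UBP13oe 1.20 and 1.92, and ubp12ubp13 4.53 and 5.89. The 2 cry2-1 libraries were below and the 2 ubp12ubp13 libraries above all others, with WT just above CRY2oe and UBP13oe. In estimated fragments the gene had 6 and 10 in cry2-1, 27.8 and 39.7 in WT and 80 and 63.9 in ubp12ubp13, so the cry2-1 levels had the largest relative counting error. On the scale of log2(FPKM + 1), which understates changes of low genes, it fell by 1.06 ± 0.16 in cry2-1 (limma adjusted p = 0.00141) and rose by 1.05 ± 0.16 in ubp12ubp13 (limma adjusted p = 0.000852). The ratio of the means to WT was 0.219 in cry2-1 and 2.63 in ubp12ubp13, and the mean in CRY2oe was 4.01 times that in cry2-1. The values of -0.12 in CRY2oe and -0.24 in UBP13oe did not pass (limma adjusted p = 0.617 and 0.277). The stricter filter of a mean of 5 FPKM left BBX32 untested.

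**Figure D3:**
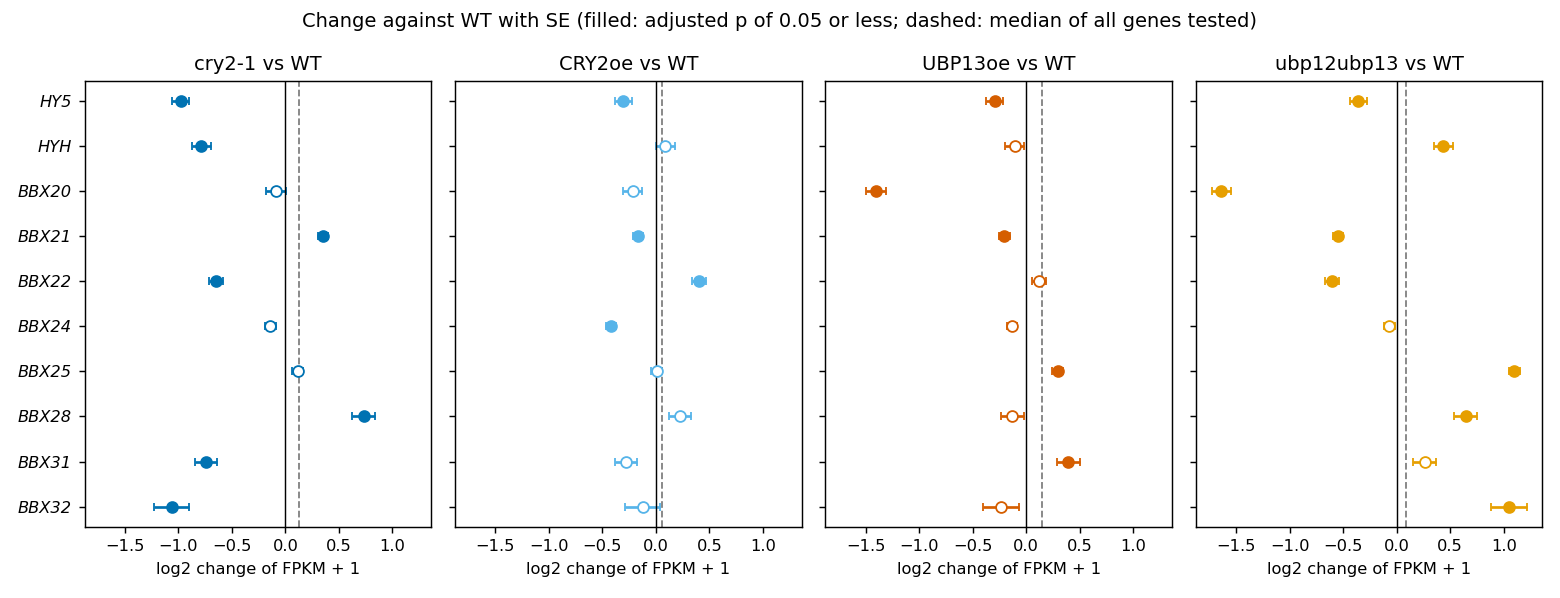
Log2 change of FPKM + 1 against WT (horizontal axes) with its SE (bars) for the 10 genes in each line, filled where the limma adjusted p was 0.05 or less; the dashed line is the median of all genes tested. Changes below -1 are those of BBX32 in cry2-1 and of BBX20 in UBP13oe and ubp12ubp13.

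Counted together, 2 of the 10 genes rose and 5 fell in cry2-1, where 43.6% of all genes tested were called (31.7% higher and 11.8% lower). BBX21 and BBX28 rose, and HY5, HYH, BBX22, BBX31 and BBX32 fell. In CRY2oe 1 rose (BBX22) and 3 fell (HY5, BBX21 and BBX24), where 26.2% of all genes were called (16.5% higher and 9.63% lower). In UBP13oe 2 rose (BBX25 and BBX31) and 3 fell (HY5, BBX20 and BBX21), where 43.9% were called (35.2% higher and 8.74% lower). In ubp12ubp13 4 rose (HYH, BBX25, BBX28 and BBX32) and 4 fell (HY5, BBX20, BBX21 and BBX22), where 56.8% were called (34.6% higher and 22.2% lower). The 5 of 10 in UBP13oe were near the share of all genes, and with 10 genes the other counts are descriptions. The 4 comparisons share the WT libraries. Without CRY2oe replicate 1 or 2 the CRY2oe count was 2, and without UBP13oe replicate 2 the UBP13oe count was also 2.

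The median log2 change of the 10 genes was -0.39 in cry2-1, -0.14 in CRY2oe, -0.13 in UBP13oe and 0.10 in ubp12ubp13. For all genes tested it was 0.12, 0.05, 0.15 and 0.09, and the median-of-ratios rescaling brought it to between -0.01 and 0.01. With that rescaling the split of all genes called was 3293 higher against 4068 lower in cry2-1, 2168 against 3004 in CRY2oe, 3557 against 3806 in UBP13oe and 5570 against 5615 in ubp12ubp13. Of the 10 genes, 2 then rose against 6 that fell in cry2-1, 1 against 4 in CRY2oe, 0 against 5 in UBP13oe and 4 against 5 in ubp12ubp13.

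Set directly against cry2-1, CRY2oe had 5 of the genes higher (HY5, HYH, BBX22, BBX31 and BBX32) and 3 lower (BBX21, BBX24 and BBX28), where 37.4% of all genes were called (13.5% higher and 24.0% lower). HYH differed by 0.87 ± 0.09 and BBX32 by 0.94 ± 0.16 on the log2 scale (limma adjusted p = 0.000144 and 0.00278). Against UBP13oe, ubp12ubp13 had 4 higher (HYH, BBX25, BBX28 and BBX32) and 2 lower (BBX21 and BBX22), where 52.9% were called (20.8% higher and 32.1% lower). BBX32 differed most, by 1.29 ± 0.16, and BBX22 was -0.73 ± 0.07 lower (limma adjusted p = 0.00033 and 4.99e-05). HY5 did not differ there (-0.06 ± 0.08, limma adjusted p = 0.544), nor did it without ubp12ubp13 replicate 1, where the value was 0.07, but it passed without replicate 2 (-0.19, adjusted p = 0.0321).

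Likeness of pattern was measured over the 10 libraries as the root-mean-square difference of log2(FPKM + 1), centred on each gene's mean, among 14277 genes. The libraries of a genotype are shared by all genes, so these are descriptions. Closest to HY5 were UVR3 (0.103), which encodes a photolyase that repairs ultraviolet damage to DNA, PEX11D (0.104), a peroxisome proliferation factor, and ATAMI1 (0.105), an amidase. UVR3, for example, had means of 28.1, 15.6, 23.5, 23.6 and 20.6 FPKM in WT, cry2-1, CRY2oe, UBP13oe and ubp12ubp13. Closest to HYH were AT1G33110 (0.079), AT4G18740 (0.081) and AT1G04350 (0.086). Closest to BBX31 were LP1 (0.106), a lipid transfer protein gene, CYP706A5 (0.115), a cytochrome P450 gene, and PMI2 (0.135), which acts in chloroplast movement. Among the 10 genes themselves HY5 and HYH were the closest pair at 0.279, and BBX20 and BBX32 the farthest apart at 1.26.

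Of 24 other BBX family genes 21 were tested. In cry2-1 5 rose and 6 fell (3 and 8 rescaled by the median of ratios), in CRY2oe 3 and 3, in UBP13oe 2 and 5 (1 and 7 rescaled), and in ubp12ubp13 7 and 8. Of all genes tested, without rescaling, 43.6%, 26.2%, 43.9% and 56.8% were called in the same order. The medians of these BBX genes were 0.06, 0.08, -0.03 and -0.04. The count of rises was 3 in cry2-1 without cry2-1 replicate 2, and 1 in CRY2oe without CRY2oe replicate 1 and in UBP13oe without WT replicate 2 or UBP13oe replicate 2. BBX30, the second microprotein of the family and the nearest homologue of BBX31, was at 6.95 and 5.44 FPKM in WT and at 1.05 and 1.57 in cry2-1, a log2 change of -1.64 ± 0.18 (limma adjusted p = 0.000245). BBX30 and BBX31 thus both fell in cry2-1. In ubp12ubp13 BBX30 rose to 15.2 and 17.8 FPKM (1.29 ± 0.18, limma adjusted p = 0.000399). BBX31 was not called there (0.26 ± 0.11, limma adjusted p = 0.0636). BBX7 fell from 53.4 and 58.9 to 28.2 and 28.7 in cry2-1 (-0.95 ± 0.06, limma adjusted p = 1.54e-05) and to 30.6 and 30.1 in ubp12ubp13 (-0.86 ± 0.06, limma adjusted p = 7.86e-06). BBX27 rose from 51.3 and 56.9 to 73.5 and 78.4 in cry2-1 (0.48 ± 0.06, limma adjusted p = 0.000422). BBX18, a repressor of photomorphogenesis, rose from 3.83 and 4.67 to 14.6 and 18.1 in ubp12ubp13 (1.72 ± 0.13, limma adjusted p = 1.29e-05).

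Of 27 genes known as direct targets of HY5 or as dependent on it, 26 were tested. The list does not separate genes that HY5 raises from genes that it lowers, so the counts do not measure HY5 activity. In cry2-1 5 rose and 13 fell (3 and 15 rescaled), with a median of -0.27, and in CRY2oe 14 rose and 1 fell, with a median of 0.35. In UBP13oe 8 rose and 4 fell, with a median of 0.12, but 5 rose and 7 fell after the median-of-ratios rescaling. In ubp12ubp13 19 rose and 6 fell, with a median of 0.75, and 1 was not called. Of all genes tested, without rescaling, 31.7% rose and 11.8% fell in cry2-1, and 16.5% and 9.63% in CRY2oe. The shares were 35.2% and 8.74% in UBP13oe and 34.6% and 22.2% in ubp12ubp13. HY5 itself was below WT in all 4 lines, but its calls in CRY2oe and UBP13oe rested on single libraries. The part of HY5 in the target counts was not tested. The CRY2oe rises numbered 9 and the falls 0 without CRY2oe replicate 2, and the UBP13oe rises 5 without WT replicate 2 and 4 without either UBP13oe replicate.

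Among these, BIC1, an inhibitor of cryptochromes, fell from 10.3 and 8.75 FPKM to 2.60 and 2.1 in cry2-1 (-1.65 ± 0.11, limma adjusted p = 2.95e-05). MYBL2, a repressor of anthocyanin synthesis, fell from 118 and 107 to 57.6 and 50 there (-1.05 ± 0.09, limma adjusted p = 9.57e-05). MYBL2 also fell in UBP13oe and ubp12ubp13, by 0.70 ± 0.09 and 0.88 ± 0.09 (limma adjusted p = 0.000823 and 9.01e-05). Its change of 0.25 ± 0.09 in CRY2oe did not pass (limma adjusted p = 0.0829). CHS, the first enzyme of flavonoid synthesis, rose from 9 and 6.14 to 76.1 and 86.2 in CRY2oe (3.28 ± 0.19, limma adjusted p = 9.87e-05), and FLS1, flavonol synthase, from 4.27 and 2.26 to 20.9 and 21.4 (2.42 ± 0.20, limma adjusted p = 0.000336). In cry2-1, where HY5 was lowest, both fell, CHS by 1.86 ± 0.19 and FLS1 by 1.12 ± 0.20 on the log2 scale (limma adjusted p = 0.00021 and 0.00249), as did the flavonoid enzyme genes F3H and CHI. The CHS difference between UBP13oe and WT was -0.63 ± 0.19 (limma adjusted p = 0.0292), and its call was lost without WT replicate 1 (-0.39, limma adjusted p = 0.156) or without UBP13oe replicate 1 (-0.46, limma adjusted p = 0.159). The flavonoid enzyme genes thus moved in opposite directions in CRY2oe and cry2-1. The rise was not particular to CRY2oe. In ubp12ubp13 CHS rose by 2.66 ± 0.19 and FLS1 by 1.75 ± 0.20 on the log2 scale (limma adjusted p = 1.24e-05 and 0.000137). F3H rose there by 1.32 ± 0.15 and CHI by 0.73 ± 0.10 (limma adjusted p = 0.000135 and 0.000528). HY5 means were 33.4 FPKM in CRY2oe, 20.6 in cry2-1, 32.3 in ubp12ubp13 and 41.6 in WT, and the CRY2oe call rested on single libraries. The part of HY5 in the flavonoid changes was not tested. CHLH, a subunit of the magnesium chelatase of chlorophyll synthesis, was at 132 and 124 in WT and was higher in every other line. It was at 181 and 182 in cry2-1 (0.50 ± 0.05, limma adjusted p = 0.000247) and 498 and 472 in ubp12ubp13 (1.91 ± 0.05, limma adjusted p = 2.67e-07). The log2 change of CHLH was 0.35 ± 0.05 in CRY2oe and 0.54 ± 0.05 in UBP13oe (limma adjusted p = 0.00361 and 0.000247). PORC, a protochlorophyllide oxidoreductase, rose from 35.6 and 34.4 to 55.3 and 54.6 in UBP13oe (0.64 ± 0.04, limma adjusted p = 5.74e-05) and to 95.9 and 94.9 in ubp12ubp13 (1.42 ± 0.04, limma adjusted p = 2.73e-07). The listed genes thus moved in different directions within a line. RUP1, a repressor of the ultraviolet-B receptor, fell from 25.6 and 25.2 to 11.7 and 11 in ubp12ubp13 (-1.10 ± 0.07, limma adjusted p = 5.99e-06). ABI5, an abscisic acid response factor of seeds, fell from 7.55 and 7.29 to 3.14 and 3.47 in UBP13oe (-0.97 ± 0.09, limma adjusted p = 0.000199), where all 5 tested seed markers fell too.

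**Figure D4:**
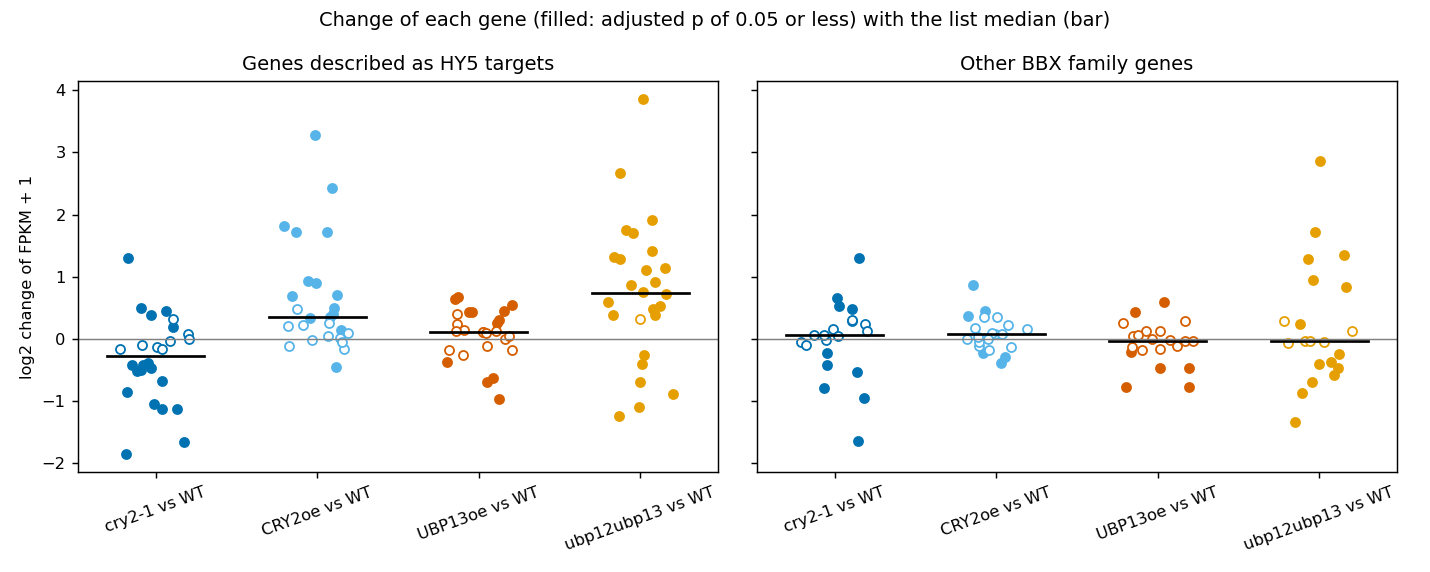
Log2 change of FPKM + 1 against WT (vertical axis) of each tested HY5 target gene (left) and other BBX family gene (right) in each line, filled where the limma adjusted p was 0.05 or less, with the list median (bars). The target medians are -0.27, 0.35, 0.12 and 0.75, and those of the other BBX genes lie between -0.04 and 0.08.

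Of the 8 COP1, SPA and DET1 group genes, which encode the ligase that marks HY5 and BBX proteins for degradation and its helpers, 2 rose against 1 that fell in cry2-1, 2 against 0 in CRY2oe, 4 against 1 in UBP13oe and 3 against 0 in ubp12ubp13. Of all genes tested, 43.6%, 26.2%, 43.9% and 56.8% were called in the same order. Most of the calls in this list were small, and after the median-of-ratios rescaling its counts were 1 and 3, 1 and 0, 1 and 1, and 2 and 1. The list counts also moved with single libraries. The rises were 1 in cry2-1 without WT replicate 1 or cry2-1 replicate 1, 1 in CRY2oe without any of WT replicate 1 or the cry2-1, CRY2oe and UBP13oe replicates, and 2 in UBP13oe without UBP13oe replicate 2. The falls were 0 in cry2-1 without WT replicate 2 or either cry2-1 replicate, 2 there without WT replicate 1, 0 in UBP13oe without WT replicate 2 or UBP13oe replicate 2, and 1 in ubp12ubp13 without WT replicate 1. SPA1, a partner of COP1, rose in all 4 lines, from 21.4 and 23.0 FPKM in WT to 32.9 and 33.7 in UBP13oe (0.57 ± 0.05, limma adjusted p = 0.000131) and 32.8 and 32.7 in ubp12ubp13 (0.54 ± 0.05, limma adjusted p = 3.16e-05).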

How the data were processed

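Poly(A) RNA of 10 libraries, 2 biological replicates of 5 genotypes, was used. Per the submitters' processing notes, STAR and Cufflinks 2.1.1 were used with TAIR10. The authors deposited FPKM for 33557 genes, per the file headers. The kit was directional per the labels' protocols, and strand use in counting was not given in the sources used here. Failed estimates (15 entries at 10 loci, none of the 10 genes studied) were treated as missing.

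Values were tested as log2(FPKM + 1) in 1 fit with limma 3.58.1 (R 4.3.3, trend) over all 10 libraries, for the 19957 genes that reached 1 FPKM in 2 libraries or more, two-sided, with Benjamini-Hochberg adjustment over all genes within a comparison and calls at an adjusted p of 0.05. Python 3.11.15 was used otherwise. Data were simulated for 19947 genes, with 200 of them changed in each line against WT in turn. In the real comparisons with WT 26.2% to 56.8% of genes were called, so recovery there may differ. The fit recovered 46.3% (UBP13oe) to 62.7% (CRY2oe) of log2 changes of 0.5. It recovered 89.6% to 91.0% of changes of 1 and 93.9% to 98.5% of changes of 2.

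Depth was estimated from the steps of low values in 5042 genes without introns (96.4% to 98.5% of values whole within 0.1 fragment). A floor of 3 fragments is 0.0978 to 0.195 FPKM for 1 kb, and covers counting error only. FPKM are not counts, so count-based tests were left out.

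The members, gene lists and tests were chosen with earlier results of these data known. Besides the 10 genes, the text names the 3 genes closest in pattern to HY5, HYH and BBX31, overlapping loci, the targeted genes, and examples from up to 2 called genes per list, direction and line with the smallest adjusted p. AT1G04410 and AT1G04420 were named after their values were seen. Promoters were read from RefSeq's TAIR10.1, whereas gene positions are those of the files. The promoter of 1 of the 10 genes is not reported here. Alternatives were other pseudocounts, filters, scalings and variance fits, a replicate block, a fit of the compared libraries alone and leaving out each library.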

Additional observations from a re-analysis of the deposited data

How the results depend on the processing

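Over all 10 genotype pairs, settings other than leaving out a library left 757 results on the same side of the threshold and in the same direction, 15 gained and 9 lost the call, and 9 changed sign. None of the calls in cry2-1 or ubp12ubp13 against WT was lost in any setting run in which the gene was tested. For HY5, ubp12ubp13 minus UBP13oe became 0.0107 with the median-of-ratios rescaling and 0.0263 with nuclear genes scaled to a common sum, and UBP13oe minus CRY2oe became -0.0829 and -0.0572. For BBX24, UBP13oe minus cry2-1 became -0.0104 and -0.088 with the same scalings. With the median-of-ratios rescaling, BBX22 in UBP13oe became -0.0405, and BBX25 became -0.0316 in cry2-1 and -0.0645 in CRY2oe. None of these 9 values passed the threshold, and the cause was not tested.

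Leaving out 1 library, which leaves a genotype with 1 library assumed to vary like the others, gave 947 unchanged, 12 gained, 31 lost and 10 reversed results. The members called ranged from 2 to 5 in CRY2oe and from 2 to 5 in UBP13oe. No reversed value passed the threshold. The values ranged from -0.193 to 0.0704 for HY5 in ubp12ubp13 against UBP13oe, -0.0148 to 0.0317 in UBP13oe against CRY2oe and -0.185 to 0.0789 in ubp12ubp13 against CRY2oe. For HYH and BBX25 in CRY2oe against WT they were -0.0306 to 0.209 and -0.0218 to 0.0361. For BBX22 in ubp12ubp13 against cry2-1 they were -0.0323 to 0.115, and for BBX24 in UBP13oe against cry2-1 -0.0259 to 0.0364. For BBX31 in ubp12ubp13 against UBP13oe they were -0.304 to 0.0415, and for BBX32 in UBP13oe against CRY2oe -0.318 to 0.0897.

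The replicate numbers did not pair the libraries: deviations of same-numbered libraries correlated at -0.09 to 0.15. With the replicate block 7 members were called in cry2-1, 4 in CRY2oe, 5 in UBP13oe and 8 in ubp12ubp13, as without it, and no member's call changed. Count-based alternatives were not run. Depth limits BBX32 most, since its cry2-1 levels rest on 6 and 10 estimated fragments.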

Other observations

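The genes named here were chosen after their values were seen, and the values are descriptions over the 10 libraries. The 3 genes closest to BBX25, by the same root-mean-square difference, were CXIP1 (0.050), GLK2 (0.062), which encodes a transcription factor of chloroplast development, and PSY (0.066), phytoene synthase of carotenoid synthesis. GLK2 had means of 101 FPKM in WT, 113 in cry2-1, 101 in CRY2oe, 121 in UBP13oe and 233 in ubp12ubp13. The gene closest to BBX21 was FHY1 (0.068), which carries phytochrome A into the nucleus, with means of 21.8, 30.0, 21.9, 20.1 and 16.3 FPKM in the same order. Closest to BBX20 was AT4G29190 (0.131), with means of 47.5, 42.7, 48.9, 18.8 and 16.8 FPKM.

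The ratio of BBX28 to BBX31 within a library was 2.32 and 2.00 in WT and 6.22 and 6.56 in cry2-1. CRY2oe gave 3.43 and 2.84, UBP13oe 1.60 and 1.34, and ubp12ubp13 3.38 and 2.33. The cry2-1 libraries had the highest ratios and the UBP13oe libraries the lowest.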
